A study of Mus musculus with 24 samples.

Results

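The 10 genes described here are genes of enteroendocrine cells in the mouse intestine: *Chga*, *Chgb*, *Cck*, *Gcg*, *Gip*, *Sct*, *Nts*, *Sst*, *Pyy* and *Tph1*. They encode hormones, secretory granule proteins and, for *Tph1*, an enzyme of serotonin synthesis. They were taken by gene name from a table of 56691 genes, and 34471 of these had any count. RNA came from the distal jejunum of 24 mice, 3 in each of 8 groups, with 1 library per mouse. The groups were male (M) and female (F) mice, either wild type or carrying a germline disruption of *Ptk6* (Ptk6-/-), a gene for an intracellular tyrosine kinase, and they drank either regular water (control) or water with 100 mM succinate for 7 days. All mice shared the C57BL/6 background following more than 20 generations of backcrossing and were 9 to 11 weeks old at the end of the experiment. Because the disruption is germline, it is not limited to the epithelium. The question asked of these genes was whether their RNA differed with genotype, with succinate or with sex.

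Enteroendocrine cells are rare secretory cells of the intestinal epithelium that sense the contents of the lumen and release peptide hormones or serotonin from dense granules. Chromogranins, made from *Chga* and *Chgb*, are the acidic proteins around which such granules form, and each hormone is cut from a longer precursor inside the granule. Individual cells commonly make several hormones, and the mixture shifts along the length of the gut and as a cell migrates from crypt to villus. In the jejunum these cells are neighbours of tuft cells, the chemosensory cells that respond to luminal succinate.

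In the deposited annotation, whose build the submitters' processing notes give as GRCm39, the granin genes were *Chga* (ENSMUSG00000021194) at chr12:102521228-102531287 on the + strand and *Chgb* (ENSMUSG00000027350) at chr2:132623198-132636999 on the + strand. Of the gut hormone genes, *Cck* (ENSMUSG00000032532) at chr9:121318890-121324705 on the - strand, *Gcg* (ENSMUSG00000000394) at chr2:62304874-62313994 on the - strand, *Gip* (ENSMUSG00000014351) at chr11:95915371-95921657 on the + strand and *Sct* (ENSMUSG00000038580) at chr7:140858243-140859046 on the - strand came first. The others were *Nts* (ENSMUSG00000019890) at chr10:102317617-102326347 on the - strand, *Sst* (ENSMUSG00000004366) at chr16:23708323-23709708 on the - strand, *Pyy* (ENSMUSG00000017311) at chr11:101997502-101998658 on the - strand and *Tph1* (ENSMUSG00000040046) at chr7:46294065-46321961 on the - strand.

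RefSeq start sites were found for 10 of the 10 genes in the table of promoters on GRCm38.p6, and 5 windows of the 250 bases before the start are shown, read in the direction of the gene from 5′ to 3′. *Chga* and *Chgb* are shown because the RNA of these granins did not rise and fall together, *Sct* and *Pyy* because theirs did so most closely, and *Sst* for its cyclic AMP response element, the classical example of that site. Capitals mark TGACG on either strand, CANNTG (the E-box letters that NeuroD-type factors read, the same on either strand) and TATAAA on the strand of the gene.

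Chga (chr12:102554691-102554940, + strand): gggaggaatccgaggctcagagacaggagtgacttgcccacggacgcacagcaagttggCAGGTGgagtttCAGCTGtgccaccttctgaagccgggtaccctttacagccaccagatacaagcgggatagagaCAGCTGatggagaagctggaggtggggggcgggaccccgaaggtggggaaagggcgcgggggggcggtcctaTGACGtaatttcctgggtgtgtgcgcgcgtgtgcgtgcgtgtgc
Chgb (chr2:132781392-132781641, + strand): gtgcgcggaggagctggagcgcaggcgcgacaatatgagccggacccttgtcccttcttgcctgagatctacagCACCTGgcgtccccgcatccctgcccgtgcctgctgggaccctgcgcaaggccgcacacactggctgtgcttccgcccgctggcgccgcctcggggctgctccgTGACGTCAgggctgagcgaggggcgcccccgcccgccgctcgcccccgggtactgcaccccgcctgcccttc
Sct (chr7:141279134-141279383, - strand): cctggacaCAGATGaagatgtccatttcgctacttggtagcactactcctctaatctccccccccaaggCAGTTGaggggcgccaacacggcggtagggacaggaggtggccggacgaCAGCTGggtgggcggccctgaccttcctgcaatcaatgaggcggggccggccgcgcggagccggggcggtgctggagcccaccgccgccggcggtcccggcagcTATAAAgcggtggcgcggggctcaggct
Pyy (chr11:102107833-102108082, - strand): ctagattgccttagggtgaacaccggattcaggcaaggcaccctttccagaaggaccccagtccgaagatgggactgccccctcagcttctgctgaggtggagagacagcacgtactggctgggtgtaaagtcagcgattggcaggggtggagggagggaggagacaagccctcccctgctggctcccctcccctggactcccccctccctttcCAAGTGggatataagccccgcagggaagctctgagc
Sst (chr16:23890845-23891094, - strand): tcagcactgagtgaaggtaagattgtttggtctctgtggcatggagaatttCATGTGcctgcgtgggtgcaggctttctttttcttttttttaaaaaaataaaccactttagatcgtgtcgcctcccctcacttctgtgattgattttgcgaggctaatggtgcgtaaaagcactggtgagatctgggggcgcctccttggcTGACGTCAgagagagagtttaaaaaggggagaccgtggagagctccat

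The full element TGACGTCA, whose reverse complement is the same and which contains TGACG on either strand, began 48 bases upstream of the *Sst* start and 72 bases upstream of the *Chgb* start. It was held by 1.55% of 32851 such windows in the table. *Chga* had the shorter TGACG beginning 44 bases upstream, letters that 17.8% of the windows hold. CANNTG occurred 3 times in the *Sct* window and 3 times in the *Chga* window, and at least once in 66.2% of all windows. *Sct* also had TATAAA beginning 28 bases upstream, found in 7.59% of windows. *Pyy* had 1 CANNTG and none of the other letters. These matches describe the letters of the windows only.

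Total counts were 8080321 to 52824743 per library, and *Ptk6* itself had 7 to 61 counts in the 12 Ptk6-/- libraries and 284 to 2405 in the 12 wild type libraries. Each of the 10 genes had at least 10 counts in 24 of 24 libraries and the lowest counts were 15 for *Tph1*, 44 for *Gcg* and 99 for *Cck*. Levels are given as CPM, counts relative to the size of the library after scaling by TMM factors, and as the authors' FPKM where genes are compared with each other. Of the 24 libraries, 3 stood apart on values unrelated to hormones. Replicate 1 of the male wild type controls gave 51.2% of its counts to an 18S ribosomal RNA gene. The shallowest library, replicate 1 of the Ptk6-/- males on succinate, gave 29.7%, against 0.108% to 4.49% in the 21 others. Heart muscle markers in replicate 2 of the wild type females on succinate had a sum of 18404 CPM, against 17.4 to 95.0 in the same 21. Distal intestine markers were lower, at 569 to 1306 CPM in sum, in replicates 1 and 2 of the wild type females on succinate and in all 3 succinate-treated Ptk6-/- females. Lung markers summed to 6.08 to 17.1 CPM in all 6 Ptk6-/- females and in replicate 3 of the wild type females on succinate, against 0 to 0.717 CPM in the 17 others. Of 11 pancreas markers, 5 had a count and 2 passed the filter on low counts, with a summed level of 0.871 to 3.32 CPM. Where libraries differ in a level, fewer enteroendocrine cells and less RNA per cell cannot be told apart in tissue RNA.

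On the length-scaled FPKM axis, somatostatin (*Sst*), which restrains the release of other hormones, had the highest mean of the 10 at 45.7 ± 25.4 FPKM (mean ± SD, n = 24). Neurotensin (*Nts*), a peptide of the distal small intestine released by fat, had a mean of 36.6 ± 15.6 FPKM and a median of 37.5 FPKM, above the 35.6 FPKM of *Sst*. Peptide YY (*Pyy*), which slows transit and curbs appetite, was at 28.1 ± 16.7 FPKM. The granins were level with each other at 22.4 ± 7.83 FPKM for *Chga* and 21.7 ± 7.18 FPKM for *Chgb*. Secretin (*Sct*), which drives bicarbonate secretion, stood at 21.2 ± 9.29 FPKM. The incretin *Gip* was at 19.0 ± 8.18 FPKM and *Gcg*, the precursor of the glucagon-like peptides, at 10.2 ± 3.78 FPKM. Cholecystokinin (*Cck*), which empties the gallbladder, was at 7.12 ± 4.54 FPKM. *Tph1*, the enzyme that makes the first intermediate of serotonin in enterochromaffin cells, was far lower than the peptide genes at 0.415 ± 0.203 FPKM. In this order of means only the steps from *Gip* to *Gcg* and from *Cck* to *Tph1* were wider than the larger SD of the neighbours, and all other neighbours overlapped within their SD. The lowest *Chga* value, 10.1 FPKM, was that of the library with the highest 18S share, where its TMM-scaled level was 80.0 CPM.

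**Figure D1:**
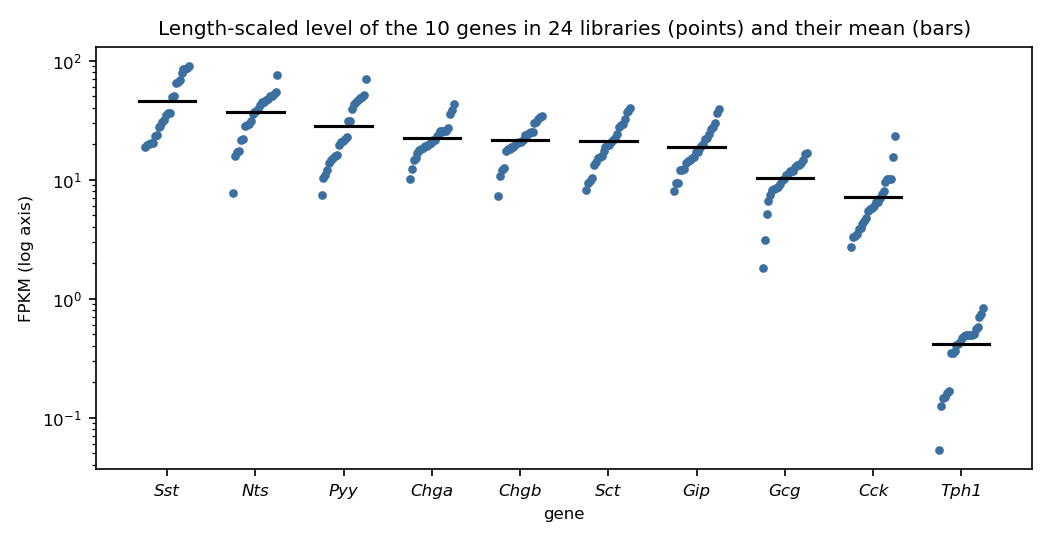
FPKM (log axis) of the 10 genes in each of the 24 libraries (points, sorted within a gene), with the mean as a bar. Means run from 45.7 for Sst to 0.415 for Tph1, and the points of neighbouring genes overlap except between Cck and Tph1.

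None of the 10 genes was called in any of the 14 comparisons made, where a call needed a Benjamini-Hochberg adjusted p under 0.05 in edgeR's quasi-likelihood test and a fold change of 2 or more in either direction. DESeq2 called 0 of the 10 in each as well. The share of all genes called was itself small in most comparisons, at 0.739% for the genotype effect in control males, 0.0158% in control females and 0% in both succinate-treated sexes. Succinate gave 0% in wild type males, Ptk6-/- males and wild type females, and 0.0879% in Ptk6-/- females. Over all 24 mice, with the other factors in the model, 0.525% of genes were called for succinate, 0.0184% for genotype and 0.134% for sex. For the 3 interactions no gene was called. At an unadjusted p under 0.05, members numbered 5 of 10 in control males (25.2% of all genes), 4 of 10 for succinate in Ptk6-/- males (7.75%), 3 of 10 for succinate over 24 mice (16%), 2 of 10 for succinate in wild type males (4.07%), and 1 of 10 for succinate in wild type females (7.77%), genotype in succinate-treated males (2.72%), genotype over 24 mice (12.8%) and sex over 24 mice (14.6%). They numbered 0 of 10 for genotype in control females (11.1%) and succinate-treated females (4.52%), for succinate in Ptk6-/- females (10.7%) and for the interactions of genotype and succinate in males (3.8%) and females (6.46%) and of sex and genotype (4.64%). All p values measure the spread between mice of these groups.

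**Figure D2:**
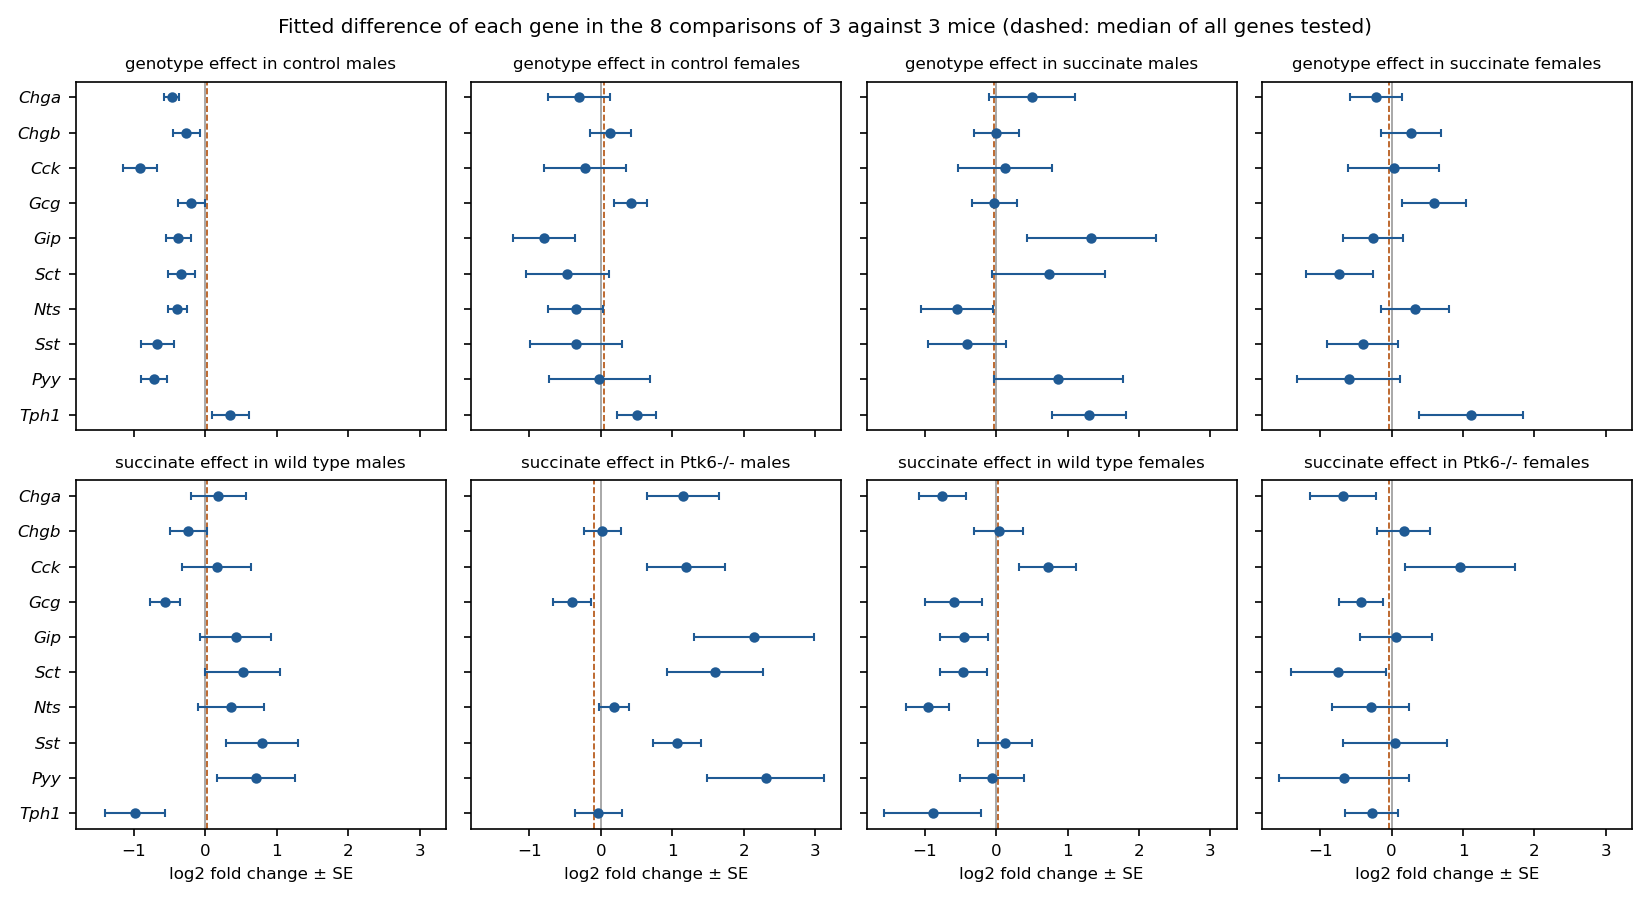
Log2 fold change with its standard error for the 10 genes in the 8 comparisons of 3 against 3 mice. The dashed line is the median of all genes tested, and in control males 9 of 10 genes lie to its left with short error bars, while in the other panels the bars are longer and many cross 0.

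The smallest adjusted p values among the 10 genes belonged to the genotype comparison in control males, where 9 were lower in Ptk6-/- mice and *Tph1* was higher (log2 fold change 0.35). With 1 library left out *Tph1* ran from 0.09 to 0.48. *Chga* measured 80.0, 87.8 and 90.1 CPM in the 3 wild type mice and 60.6, 59.9 and 68.0 CPM in the 3 Ptk6-/- mice. The groups did not overlap, and the log2 fold change was -0.47 ± 0.10 (SE) with an adjusted p of 0.0461 by edgeR. That passes the p threshold without reaching the fold threshold. Of all genes tested, 4.23% had an adjusted p under 0.05 at any fold, which includes the 0.739% called.

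*Pyy* was 18.8, 17.3 and 18.3 CPM in those wild type controls and 8.73, 11.4 and 13.3 CPM in the Ptk6-/- controls. Its log2 fold change was -0.72 ± 0.18 (adjusted p = 0.0569, edgeR). *Cck* was 16.01, 11.5 and 9.43 CPM against 5.72, 7.26 and 6.93 CPM, a log2 fold change of -0.91 ± 0.24 (adjusted p = 0.0659). Every wild type library was above every Ptk6-/- library for both genes, although neither passed the threshold. Other methods gave smaller p values: with DESeq2 the adjusted p was 0.00177 for *Chga*, 0.00473 for *Pyy*, 0.00523 for *Cck* and 0.0298 for *Sst*, where 3018 of 19218 genes had one under 0.05. Voom with sample quality weights gave 0.0298 for *Nts* and 0.0499 for *Chgb*, where 4066 genes had one under 0.05. Over all alternatives it ran up to 0.990 for *Chga*, 0.930 for *Pyy* and 0.930 for *Cck*. The log2 fold changes of these genes came as near to 0 as -0.03, -0.28 and -0.36 over the same alternatives. *Chgb* and *Nts* changed sign in some of them, up to 0.15 and 0.05.

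*Sst* was 40.8, 28.8 and 26.2 CPM in wild type and 16.4, 24.9 and 19.7 CPM in Ptk6-/- control males. Its log2 fold change was -0.67 ± 0.23 (adjusted p = 0.119). *Nts* gave -0.39 (adjusted p = 0.111), *Gip* -0.38 (0.217), *Sct* -0.34 (0.310), *Chgb* -0.27 (0.429) and *Gcg* -0.20 (0.563), all as log2 fold changes with edgeR's adjusted p. With 1 library left out *Sst* ran from -0.85 to -0.41 and *Sct* from -0.48 to -0.19. *Chgb* then ran from -0.50 to -0.14 and *Gcg* from -0.39 to -0.03. In this comparison 5 of 10 genes had groups that did not overlap, all 5 lower in Ptk6-/- mice, where 31.3% of all genes did not overlap and 14.9% did so in the lower direction. Over the 10 genes the median was -0.38 on the log2 scale, beside 0.02 over all genes tested.

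Those libraries also differed in how steeply level rose with gene length. The slope of log2 level on log2 gene length lay at 0.454 to 0.577 in wild type and at 0.648 to 0.688 in Ptk6-/- control males. With that trend offset in the fit, the values moved toward 0: *Chga* to -0.37 (adjusted p = 0.106), *Cck* to -0.58, *Pyy* to -0.29 and *Sst* to -0.23, while *Gip*, *Sct* and *Gcg* became 0.05, 0.10 and 0.11. Without the wild type library rich in 18S RNA the values were -0.48 for *Chga*, -0.65 for *Pyy* and -0.64 for *Cck*.

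In control females the Ptk6-/- group was split, and the libraries of the genotypes overlapped for 9 of the 10 genes. Of all genes, 18.9% did not overlap in this comparison. *Pyy* was 26.9, 42.1 and 27.5 CPM in the wild type females and 11.1, 11.04 and 72.3 CPM in the Ptk6-/- females. *Sst* was 49.8, 71.1 and 65.5 CPM against 19.9, 18.3 and 107 CPM. Replicates 1 and 2 of the Ptk6-/- females lay under every wild type library for these genes, and replicate 3 lay above every one. The lung markers separated the genotypes of these controls, at 10.6, 11.1 and 17.1 CPM in the Ptk6-/- females against 0 to 0.331 CPM in the wild type, and their part in the values of the 10 genes was not tested.

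Replicate 3 of the female Ptk6-/- controls was above the mean of its group mates by 6.53 times for *Pyy*, 5.59 times for *Sst*, 4.32 times for *Sct* and 4.29 times for *Cck*. The ratio was 2.85 for *Gip*, 2.58 for *Chga* and 2.57 for *Nts*. *Gcg* (1.23), *Tph1* (0.989) and *Chgb* (0.616) did not share the excess. The same library had the highest enterocyte and goblet marker sums of its group, 56172 and 26225 CPM, against 21866 and 28467 CPM and 9847 and 15508 CPM in the other two, and its length slope was 0.448 against 0.623 and 0.667. The part of these differences in the hormone levels was not tested.

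With all 3 Ptk6-/- libraries the log2 fold change was -0.02 ± 0.71 for *Pyy* and -0.35 ± 0.64 for *Sst*, with adjusted p values of 0.994 and 0.864 (edgeR). Without replicate 3, *Sst* (-1.65), *Sct* (-1.51), *Pyy* (-1.49), *Gip* (-1.45) and *Cck* (-1.25) were called lower in Ptk6-/- females, each at an adjusted p of 0.0275 to 0.0301. In that fit 1808 genes were called, 9.65% of all tested, against 3 genes with the library in place. *Tph1* was the exception in this comparison: it measured 4.29, 3.13 and 3.20 CPM in wild type females and 5.43, 4.37 and 4.85 CPM in Ptk6-/- females, without overlap (18.9% of all genes did not overlap, and 8.51% were higher without overlap), at a log2 fold change of 0.50 (adjusted p = 0.510). The genotype difference was not shown to depend on sex for any of the 10 genes, with adjusted p values of 0.999 for the interaction of sex and genotype in controls.

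**Figure D3:**
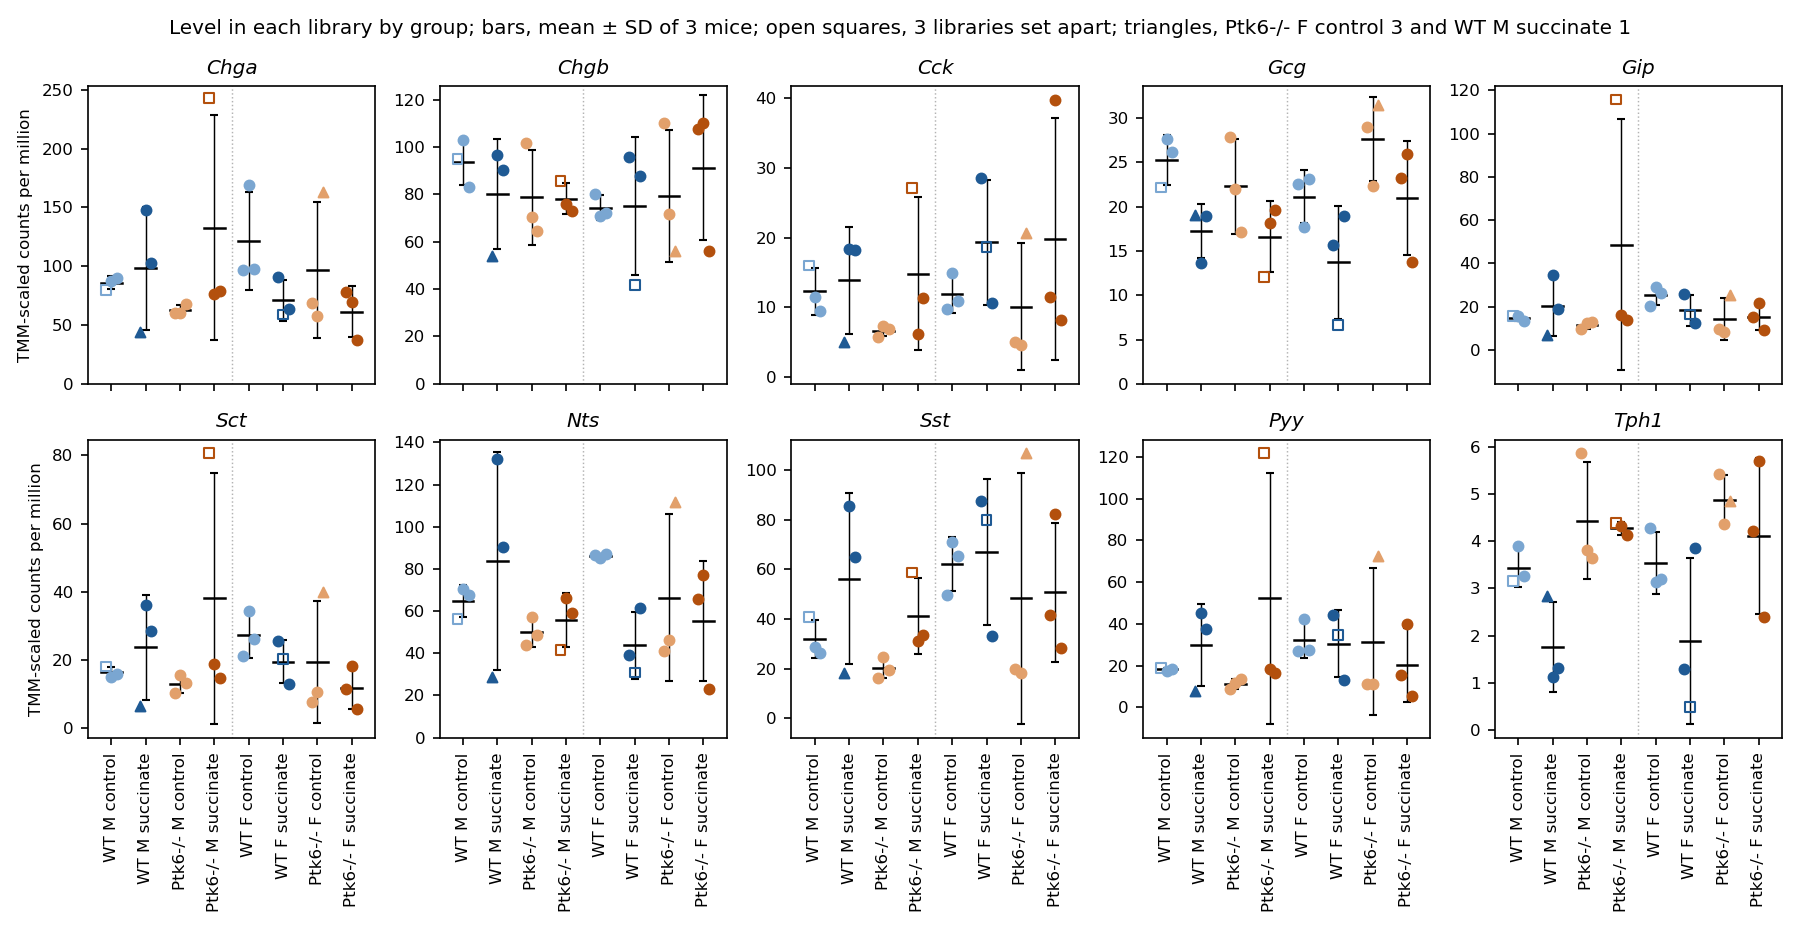
TMM-scaled CPM of each gene in each library (points), with the mean and SD of 3 mice per group. Open squares are the 3 libraries set apart by 18S RNA or heart muscle genes, and triangles are replicate 3 of the female Ptk6-/- controls, high for 7 of the genes, and replicate 1 of the succinate-treated wild type males, low for the same 7 and less so for Chgb.

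With succinate no gene of the 10 was called, and their values lay on both sides of 0. In wild type males *Gcg* was 22.2, 27.6 and 26.1 CPM in controls and 19.1, 13.7 and 18.9 CPM after succinate. *Tph1* was 3.15, 3.91 and 3.26 CPM in controls and 2.85, 1.11 and 1.302 CPM after succinate. Both were lower in every treated library, and 8.77% of all genes did not overlap in this comparison and 4.15% were lower without overlap, with log2 fold changes of -0.56 ± 0.21 and -0.98 ± 0.42 that did not pass the threshold (adjusted p = 0.947 for each, edgeR). Over the alternatives *Gcg* ran from -0.70 to -0.18, with adjusted p values down to 0.0231. Voom with sample quality weights called *Tph1* lower (-1.47, adjusted p = 0.0120), and *Pyy* (1.08, 0.0143) and *Sst* (1.23, 0.00966) higher. It called 7.81% of all genes there.

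The peptide genes of the same treated males were widely spread. *Pyy* was 7.54, 45.0 and 37.3 CPM after succinate, and *Nts* was 28.9, 132 and 90.2 CPM. In replicate 1 the mean of its group mates was higher than its own value by 5.46 times for *Pyy*, 4.91 times for *Sct*, 4.13 times for *Sst*, 3.85 times for *Gip*, 3.84 times for *Nts*, 3.67 times for *Cck* and 2.87 times for *Chga*. For *Chgb* it was higher by 1.74 times. *Gcg* and *Tph1* in replicate 1 were instead 1.17 and 2.36 times the mean of the group mates. Without that library *Pyy* (log2 fold change 1.14) and *Sst* (1.19) were called higher and *Tph1* (-1.55) lower after succinate, as were 1077 genes in all (5.8% of those tested). Its length slope was 0.657, against 0.477 and 0.492 in its group mates. Marker sums of other cells were lower there as well, at 19637 against 44339 and 35954 CPM for enterocytes, 75.0 against 131 and 178 CPM for enteric neurons and 1947 against 3458 and 6598 CPM for smooth muscle. Transcription factors of the enteroendocrine lineage went the other way, with a sum of 55.5 against 38.4 and 39.1 CPM. So did hormone receptors, at 652 against 432 and 463 CPM. Their part in the hormone values was not tested.

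In Ptk6-/- males succinate gave the widest fold changes, and most of their size came from 1 library. *Pyy* was 8.73, 11.4 and 13.3 CPM in controls and 122, 18.4 and 16.3 CPM after succinate, a log2 fold change of 2.31 ± 0.82. *Gip* was 9.61, 12.6 and 12.8 CPM against 116, 16.4 and 13.97 CPM (2.14 ± 0.84). Here *Chga*, *Gip*, *Sst* and *Pyy* were higher in every treated library, beside 23% of all genes without overlap and 11% higher without overlap, and no adjusted p among the 10 was under 0.600.

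The high values were those of replicate 1, the shallow library with much 18S RNA and the lowest length slope of the series, 0.242. Its enterocyte markers summed to 54117 CPM against 33125 and 36515 CPM in its group mates, and its goblet markers to 22142 against 15053 and 15495 CPM. Its enteroendocrine transcription factors were lower in sum, at 37.0 against 48.7 and 43.3 CPM. Its serotonin handling genes were lower too, at 347 against 715 and 801 CPM. The part of these differences in the hormone values was not tested. Replicate 1 exceeded its group mates 7.62 times for *Gip*, 7.01 times for *Pyy*, 4.77 times for *Sct* and 3.13 times for *Chga*, but only 1.15 times for *Chgb* and 1.04 times for *Tph1*. *Nts* (0.665) and *Gcg* (0.640) were lower there than in the others. Without it the log2 fold changes became 0.62 for *Pyy*, 0.64 for *Sst*, 0.36 for *Gip*, 0.34 for *Sct* and 0.28 for *Chga*, with adjusted p values of 0.441 to 0.550.

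In wild type females *Nts* was the gene with the smallest p. It measured 86.5, 85.2 and 87.0 CPM in controls, the tightest group of any of the 10 genes with a coefficient of variation of 1.11%. After succinate it was 39.1, 30.9 and 61.4 CPM, lower in every library, as *Chga* also was (13.3% of all genes did not overlap, and 7.32% were lower without overlap). The log2 fold change was -0.96 ± 0.30 with an unadjusted p of 0.0135 and an adjusted p of 0.611 (edgeR), and -0.75 without the library that held heart muscle RNA. Without replicate 3 of the treated group *Nts* was called (-1.26, adjusted p = 0.0368), as were 3.23% of all genes.

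*Nts* is highest in the distal small intestine in normal animals, and its level was read beside the distal markers. In the succinate-treated wild type females the distal marker sums were 1066, 595 and 3098 CPM in the order of the *Nts* values above, against 3755 to 4968 CPM in the controls. In the succinate-treated Ptk6-/- females they were 1306, 594 and 569 CPM, where *Nts* was 65.7, 77.0 and 23.1 CPM. Replicate 1 of the Ptk6-/- males on succinate had the highest distal sum, 10109.7 CPM, with *Nts* at 41.7 CPM, and replicate 1 of the wild type males on succinate had 1944 CPM with *Nts* at 28.9 CPM. Low distal sums and low *Nts* thus went together in the wild type females and not in every library. Over the 24 libraries *Nts* and the distal marker sum had a Pearson's r of 0.55, or 0.74 with the length trend removed, as a description of libraries that share their preparation. Other markers moved in the wild type females too. Enterocyte sums were 46073 to 52578 CPM in controls and 27070 to 36451 CPM after succinate, without overlap, and *Nts* had an r of 0.59 with them over the 24 libraries. Smooth muscle sums were 3357 to 4298 CPM in controls and 7939, 7697 and 4020 CPM after succinate. The part of sampling position or of these cells in the *Nts* values was not tested.

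In Ptk6-/- females no gene of the 10 separated the treatments, where 21.2% of all genes did not overlap. *Cck* had the largest value, from 5.08, 4.54 and 20.6 CPM in controls to 11.5, 39.8 and 8.17 CPM after succinate (log2 fold change 0.95 ± 0.77, adjusted p = 0.681). That value rested on single libraries, at 2.02 without replicate 3 of the controls and -0.06 without replicate 2 of the treated mice. The other 9 genes lay between -0.74 for *Sct* and 0.17 for *Chgb*, and without replicate 3 of the controls both changed sign, to 0.33 and -0.03. Replicate 3 of this treated group had the lowest *Chga*, *Sct*, *Nts* and *Pyy* of the whole series, at 37.2, 5.80, 23.1 and 5.17 CPM.

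Over all 24 mice, with genotype and sex in the model, *Gcg* had the smallest p for succinate. Group means of *Gcg* went from 25.3 ± 2.83 to 17.2 ± 3.06 CPM in wild type males, from 22.3 ± 5.37 to 16.6 ± 3.99 in Ptk6-/- males, from 21.1 ± 3.01 to 13.7 ± 6.38 in wild type females and from 27.6 ± 4.75 to 20.96 ± 6.44 in Ptk6-/- females (mean ± SD, n = 3 each). The means were lower after succinate in 4 of 4 pairs of groups, and the log2 fold change was -0.49 ± 0.16 (adjusted p = 0.160, edgeR). It was -0.36 (adjusted p = 0.232) without the 3 libraries set apart.

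*Cck* had a log2 fold change of 0.74 ± 0.31 (adjusted p = 0.250) with succinate over 24 mice, and *Tph1* -0.55 ± 0.25 (adjusted p = 0.283). *Chga*, *Chgb* and *Nts* were at -0.04, -0.01 and -0.16. With 1 library left out they ran from -0.26 to 0.10, from -0.06 to 0.06 and from -0.31 to -0.03. The peptide genes *Gip*, *Sct*, *Sst* and *Pyy* were at 0.55, 0.24, 0.50 and 0.56, with adjusted p values of 0.402 to 0.795. Without replicate 1 of the Ptk6-/- males on succinate *Gip* was at 0.08, *Pyy* at 0.13 and *Sct* at -0.11. Without replicate 3 of the female Ptk6-/- controls *Pyy* was at 0.91, *Sct* at 0.45 and *Sst* at 0.76. *Sct* was at 0.15 without replicate 1 of the male Ptk6-/- controls. Voom with sample quality weights gave adjusted p values of 0.0207 for *Sst*, 0.0295 for *Cck*, 0.0441 for *Tph1* and 0.0453 for *Gcg*, each under a 2-fold change, where 2954 of 21694 genes had one under 0.05. The median of the 10 genes was 0.12, beside 0.01 over all genes tested.

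*Tph1* was the gene of the 10 with the smallest p for genotype over 24 mice. Its group means were 3.44 ± 0.41, 1.75 ± 0.95, 3.54 ± 0.65 and 1.88 ± 1.76 CPM in the wild type male controls, treated males, control females and treated females. They were 4.44 ± 1.24, 4.28 ± 0.14, 4.89 ± 0.53 and 4.11 ± 1.66 CPM in the corresponding Ptk6-/- groups. Ptk6-/- means were higher in 4 of 4 pairs, at a log2 fold change of 0.80 ± 0.25 (adjusted p = 0.287, edgeR). It was 0.68 (adjusted p = 0.142) without the 3 libraries set apart. The other 9 genes lay between -0.46 for *Sst* and 0.19 for *Gcg*, with edgeR's adjusted p from 0.479 to 0.998. With 1 library left out *Sst* ran from -0.76 to -0.35 and *Gcg* from 0.10 to 0.25. The median of the 10 genes was -0.05 with all libraries, 6 of 10 being lower in Ptk6-/- mice. It was -0.40 without the 3 libraries set apart, with 8 of 10 lower and 0 called. Over all genes tested the medians of these fits were -0.02 and 0.01. Voom with sample quality weights differed here, with an adjusted p under 0.05 for 8 of the 10 and for 7490 of 21694 genes. It gave *Tph1* 0.63 (0.0109), and lower values in Ptk6-/- mice for *Pyy* at -0.99 (0.00370), *Sst* at -0.89 (0.00122), *Cck* at -0.78 (0.00358), *Sct* at -0.76 (0.00798), *Gip* at -0.64 (0.0102), *Nts* at -0.53 (0.0244) and *Chga* at -0.50 (0.0158), as log2 fold changes with the adjusted p. Each was under a 2-fold change, and the cause of the difference between the methods was not tested.

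In succinate-treated females the genotype differences ran from -0.73 for *Sct* to 1.11 for *Tph1* on the log2 scale, with edgeR's adjusted p between 0.931 and 0.996. *Tph1* was at 0.66 without replicate 2 and at 2.19 without replicate 3 of the wild type mice. *Sct* was at -1.17 without replicate 2 and at -0.40 without replicate 3 of the Ptk6-/- mice, and at -0.46 without replicate 1 of the wild type mice. No gene of the 10 separated the genotypes there, where 10.8% of all genes did not overlap.

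In succinate-treated males the *Tph1* values did not overlap between genotypes, at 2.85, 1.11 and 1.302 CPM in wild type and 4.39, 4.32 and 4.12 CPM in Ptk6-/- mice. That log2 fold change was 1.301 ± 0.52 (adjusted p = 1.00), in a comparison where 8.66% of all genes did not overlap and 2.78% were higher without overlap. *Sst* was 18.2, 85.5 and 64.8 CPM in wild type and 58.7, 31.0 and 33.6 CPM in Ptk6-/- mice, with overlap, at -0.40 on the log2 scale (adjusted p = 1.00, edgeR). With 1 library left out this *Sst* value ran from -0.82 to 0.01. Voom with sample quality weights called *Tph1* higher (1.70, adjusted p = 0.0163) and *Sst* lower (-1.01, adjusted p = 0.0366) in Ptk6-/- mice, where it called 9.52% of all genes. The interaction of genotype and succinate in males was 0.95 for *Tph1*, 1.69 for *Gip* and 1.57 for *Pyy* on the log2 scale, and no adjusted p among the 10 was under 0.993. Without the 3 libraries set apart *Gip* and *Pyy* became -0.13 and -0.14 and *Tph1* was 0.90.

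For sex, *Sst* was higher in females over 24 mice at a log2 fold change of 0.69 ± 0.29 (adjusted p = 0.275, edgeR), and at 0.42 without replicate 3 of the Ptk6-/- controls. Its means were 31.9 ± 7.81 CPM in male and 62.1 ± 11.005 CPM in female wild type controls, and 20.3 ± 4.27 and 48.3 ± 50.5 CPM in the Ptk6-/- controls, where the largest of the 3 female values was 107 CPM. After succinate the means were 56.2 ± 34.5 CPM in male and 66.9 ± 29.3 CPM in female wild type mice, and 41.1 ± 15.3 and 50.7 ± 28.03 CPM in the Ptk6-/- mice, each pair differing by less than 1 SD. The other 9 genes lay between -0.21 for *Gip* and 0.36 for *Cck*. *Gip* was at 0.23 without replicate 1 of the Ptk6-/- males on succinate, and *Cck* at 0.13 without replicate 2 of the Ptk6-/- females on succinate and 0.17 without replicate 3 of the Ptk6-/- female controls. With all libraries 5 of 10 genes were higher in females. Without the 3 set apart 10 of 10 were, from 0.02 to 0.82 with a median of 0.18, and 0 were called. With the length trend also offset in that fit, 6 of 10 were higher, with a median of 0.07.

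The 10 genes fell into a group that varied together from library to library and genes that did not follow it, as seen after the values were known. Over the 24 libraries the log2 levels of *Sct* and *Pyy* had a Pearson's r of 0.95, *Gip* and *Sct* 0.93, *Chga* and *Sct* 0.92, and *Cck* and *Sst* 0.88. The 15 pairs among *Chga*, *Cck*, *Gip*, *Sct*, *Sst* and *Pyy* ran from 0.57 to 0.95, and from 0.56 to 0.94 over the 21 libraries other than the 3 set apart. After removal of the length trend in those 21 the range was 0.36 to 0.88. These points share tissue pieces, depth and library preparation, so the values describe the libraries.

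*Nts* joined the group more closely once the 3 libraries were left out, from 0.62 to 0.85 with *Chga* and from 0.55 to 0.85 with *Sct*. *Gcg* and *Tph1* had an r of 0.75 with each other. With the 8 other genes *Gcg* ran from -0.30 with *Sst* to 0.39 with *Nts* and 0.50 with *Chgb*, and *Tph1* from -0.44 with *Sst* to 0.36 with *Chgb*. The granins parted: *Chga* and *Chgb* had an r of 0.22, although their proteins share the same granules. *Chgb* was also the steadiest of the 10, with a coefficient of variation of 23.5% over 24 libraries and group means between 74.4 and 93.7 CPM, whereas *Gip* reached 101% and *Pyy* 90.6% in CPM. That of *Gip* rested on the shallow Ptk6-/- male library, at 116 CPM against 6.995 to 34.8 CPM in the 23 others. In FPKM they were 43.2% and 59.5%, *Chgb* was lowest at 33.1% and *Cck* highest at 63.8%.

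**Figure D4:**
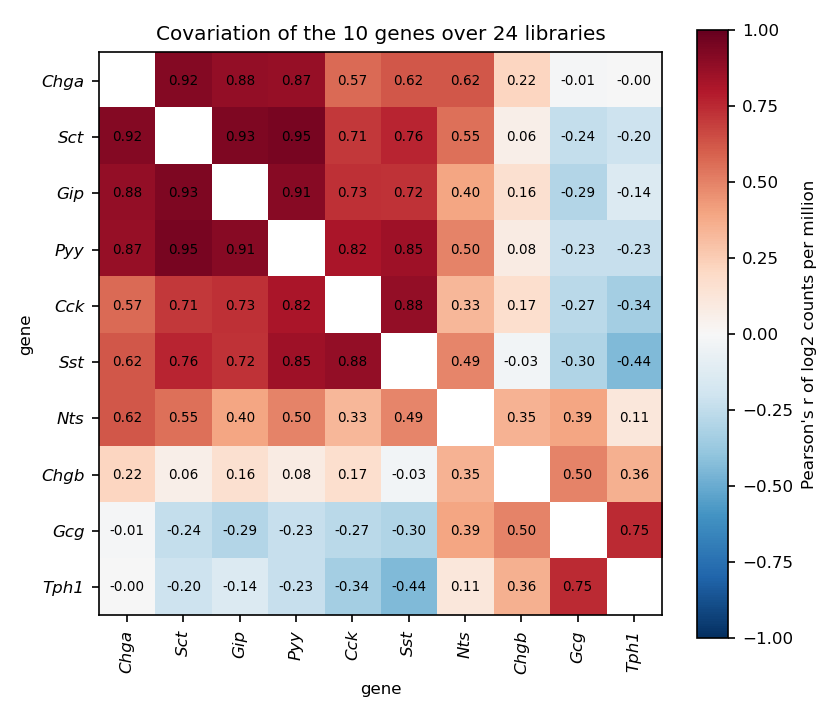
Pearson's r between the log2 CPM of each pair of the 10 genes over 24 libraries. Chga, Sct, Gip, Pyy, Cck and Sst form a block of values from 0.57 to 0.95, Gcg and Tph1 pair at 0.75, and Chgb stays at or below 0.50 with every other gene.

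The genes outside the 10 whose log2 levels ran most like each member were mostly not endocrine genes. For *Chga* they were *Cd74* (r = 0.95 over 24 libraries), the invariant chain of MHC class II, and *Psmb8* (0.95), an immunoproteasome subunit. For *Pyy* they were *Tff3* (0.97), a trefoil peptide of goblet cells, and *Mrpl23* (0.96), and for *Sct* *Amdhd2* (0.96) and *Tff3* (0.96). *Gip* was nearest to *Chmp2a* (0.96) and *Psmb10* (0.95), *Sst* to *Polr1h* (0.97) and *Rpl35a* (0.97), and *Cck* to *Rtraf-ps* (0.95) and *Ppib* (0.94).

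The genes outside the block had looser neighbours: *Nts* with *Rassf7* (0.90) and *Id3* (0.87), *Gcg* with *Mamdc2* (0.81) and *Gjb2* (0.81), *Tph1* with *Atp13a3* (0.78) and *Tpm3-rs7* (0.77), and *Chgb* with *Pes1* (0.71) and *Cotl1* (0.70). All are Pearson's r over the same 24 libraries, the 2 highest for each gene.

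The members of the block also ran against the length slope of the library. Over 24 libraries Pearson's r with the slope was -0.92 for *Gip*, -0.91 for *Pyy*, -0.86 for *Sct* and *Cck*, -0.80 for *Chga* and -0.78 for *Sst*. It was -0.30 for *Nts*, -0.17 for *Chgb*, 0.19 for *Tph1* and 0.26 for *Gcg*. The gene lengths implied by counts and FPKM were 882 bases for *Pyy*, 903 for *Sct* and 959 for *Gip*, but 3840 for *Chga* and 3820 for *Chgb*, granins that differed in their r with the slope. With each library's length trend removed the r values were still -0.82 for *Chga*, -0.82 for *Gip*, -0.89 for *Pyy* and -0.82 for *Sst*. What sets the slope of a library was not tested.

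**Figure D5:**
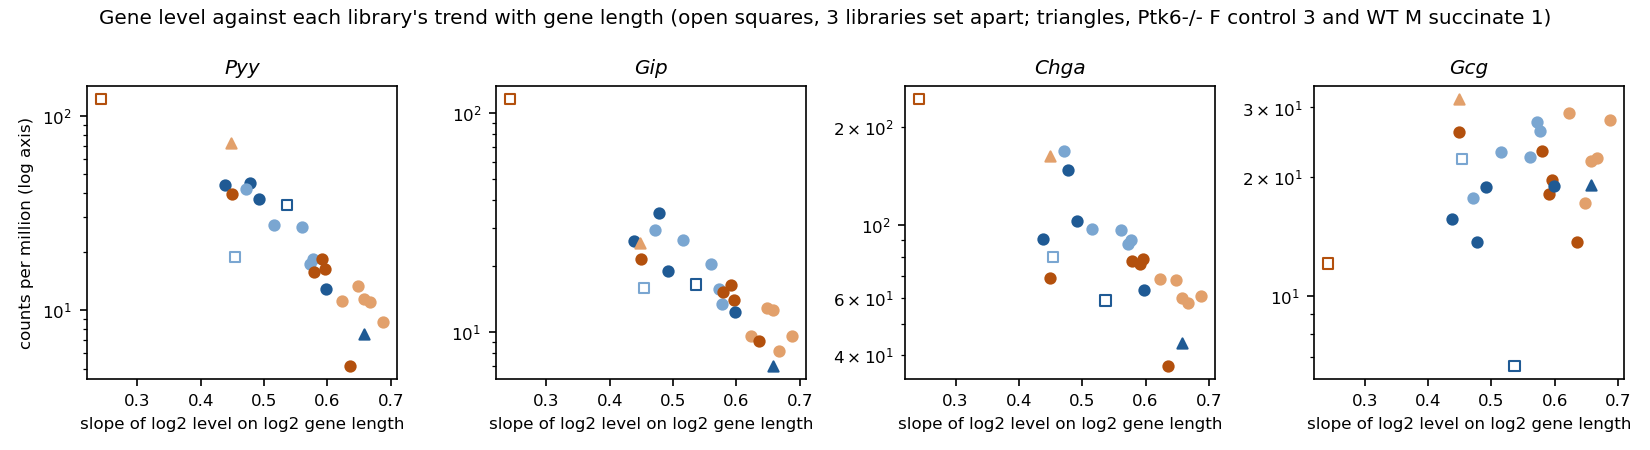
TMM-scaled CPM (log axis) of 4 of the genes against each library's slope of log2 level on log2 gene length, 1 point per library, colours as in the plot of levels by group (blue wild type, orange Ptk6-/-, darker with succinate). Pyy, Gip and Chga fall as the slope rises (r of -0.91, -0.92 and -0.80 over 24 libraries), and Gcg does not (0.26).

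Other genes of the enteroendocrine programme were followed as lists. Of 19 transcription factors of the lineage, all with enough counts to test over 24 mice, 0 were called in any of the 14 comparisons. Their median log2 fold change in control males was 0.18, where that of the 10 hormone and granin genes was -0.38, and 13 of 19 were on the higher side in Ptk6-/- mice. The length slopes did not overlap there, at 0.454 to 0.577 in wild type and 0.648 to 0.688 in Ptk6-/- males. Their part in this difference was not tested. Over 24 mice the median of the 19 was 0.41 for genotype (15 of 19 higher, 3 of 19 at an unadjusted p under 0.05 against 12.8% of all genes) and -0.27 for succinate (5 of 19 higher).

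Of 17 genes for prohormone processing and granule proteins, among them the convertases *Pcsk1* and *Pcsk2* that cut the precursors, 0 were called in any comparison. Their median log2 fold change was -0.02 in control males and -0.01 for succinate over 24 mice. The same held for calls among 9 serotonin handling genes, and among 5 of 7 further hormones and 18 of 20 hormone receptors that could be tested over 24 mice. The 5 further hormones that could be tested had mean FPKM of 5.24 for *Nucb2*, which encodes the nesfatin precursor, 1.79 for *Ghrl*, which encodes ghrelin, 1.38 for *Tac1*, which encodes substance P, 0.377 for *Iapp* and 0.177 for *Ucn3*.

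Among 14 nutrient and microbial sensors of these cells, 12 could be tested over 24 mice and 2 were called higher with succinate, beside 0.525% of all genes called. They were *Ffar3*, a receptor for short chain fatty acids, at a log2 fold change of 2.04 ± 0.46 (adjusted p = 0.0310, edgeR), and *Sucnr1*, the succinate receptor, at 1.88 ± 0.41 (adjusted p = 0.0252). Tuft cells also make both receptors, and 8 of 10 tuft cell markers were called higher in the same comparison, with a median of 1.77 over the 10. Tuft marker sums were 37.0 to 64.4 CPM in the 12 control libraries. After succinate they were 127 to 420 CPM in females, 79.8 to 114 CPM in wild type males and 39.2, 45.0 and 78.4 CPM in Ptk6-/- males. These sums were not tested between groups. Gene by gene, the interaction of genotype and succinate called 0 of all genes in males and 0 in females. The hormone and granin genes had 0 of 10 called for succinate over 24 mice.

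Markers of other cells that could carry these transcripts were read beside them. Enteric neurons, which also make *Nts*, *Cck*, *Sst* and *Chgb*, were represented by 13 markers of which 12 were tested over 24 mice and 0 called, and the marker sum was 71.5 to 178 CPM per library. In wild type males the neuron markers had a median log2 fold change of 0.87 with succinate, 10 of 12 on the higher side. In wild type females the median was -0.33, 2 of 12 on the higher side, and the marker sum was 113, 141 and 137 CPM in controls and 117, 83.3 and 97.5 CPM after succinate, where *Nts* was lower too. The part of neurons in these levels was not tested. Mast cells can also express *Tph1*. Among the succinate-treated females 5 libraries had mast cell marker sums of 84.5 to 848 CPM against 15.1 to 37.0 CPM in the 19 others, and *Mcpt1*, a mast cell protease, was called higher with succinate over 24 mice (log2 fold change 2.89 ± 0.67, adjusted p = 0.0436, edgeR). The sum of 848 CPM was that of replicate 2 of the Ptk6-/- females, and the rest of those 5 had 84.5 to 153 CPM. *Tph1* was 1.29 and 0.486 CPM in the 2 wild type females of those 5 and 4.23, 5.70 and 2.39 CPM in the 3 Ptk6-/- females, and the part of mast cells in its level was not tested.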

How the data were processed

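The 24 libraries were stranded poly(A) preparations from 24 mice, 1 library each. Counts per gene were deposited without normalization; the program that made them is not given in the sources used here. The authors obtained FPKM from StringTie and ballgown, after trimming and HISAT2 mapping. Counts were tested in R 4.3.3 with edgeR 4.0.16 (quasi-likelihood, TMM factors, genes reaching 10 counts in 3 or more libraries of a fit). The 14 comparisons were 8 of 2 groups, 3 interactions and 3 additive effects over 24 mice. Alternatives used DESeq2 1.42.0, limma 3.58.1 on log2 FPKM with pseudocounts of 1 and 0.1, voom weights, other filters and scalings, a replicate block, a gene length offset and single libraries left out. Correlations used log2(CPM + 0.5). All 10 genes were named, with genes called from the other lists, at most 4 examples per list, and the 2 genes most like each member among those with at least 10 counts in 12 libraries. Members and lists were chosen with earlier results of these data known. The code was tested on simulated data.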

Additional observations from a re-analysis of the deposited data

How the results depend on the processing

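Of the counts of the 10 genes called, 326 alternative values equalled those reported and 7 differed. Without a fold threshold 1 gene (*Chga*) was called for genotype in control males. Voom with sample quality weights called 5 for genotype in control females (10.4% of all genes), 2 for genotype in succinate-treated males (9.52%) and 3 for succinate in wild type males (7.81%). With single libraries left out, the counts ran from 0 to 5 for genotype in control females, from 0 to 3 for succinate in wild type males and from 0 to 1 for succinate in wild type females; the cause was not tested. Uncalled log2 fold changes changed sign in 192 of 1604 values under other alternatives and in 173 of 1560 with a library left out. Deviations from the group means correlated between -0.59 and 0.66 over 84 pairs of same-numbered replicates, with a median of -0.02. With 3 libraries per group, so wide a spread cannot show whether the numbers pair the mice. The main fits did not pair them, and a replicate block called 0 of the 10 in each comparison. Fits without the 3 libraries set apart, and member values with the length trend removed, were chosen after seeing the data. The lowest count of any of the 10 genes in a library was 15, for *Tph1*.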
